A study of Drosophila melanogaster with 3 samples.

Results

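Peaks of the transcription factor Su(H) whose summit lay at the promoter of a single protein-coding gene numbered 1393, or 36.3% of the 3833 peaks in the authors' thresholded list (95% Wilson interval 34.8 to 37.9%). A peak was taken when its summit, the point of highest signal, lay within 500 bp of an annotated transcription start of exactly 1 protein-coding gene, on either side and from any transcript. A further 774 peaks lay that close to starts of 2 or more protein-coding genes and are called shared promoter peaks here. Starts of non-coding genes alone were near 102 peaks, and 1564 peaks lay away from promoters. All material came from 1 group: whole Drosophila melanogaster embryos of pooled sexes, 0 to 24 h old, of a transgenic line that stably expresses Su(H) with GFP fused to its C-terminus. Chromatin immunoprecipitation and sequencing (ChIP-seq) was done on 3 biological replicates with an antibody against GFP, according to the sample descriptions, although the antibody field of the labels reads Su(H). Which promoter drives the fusion, and whether the line keeps its own Su(H), is not stated in the labels. No untreated or mutant group and no control library was analysed here, so nothing below is a contrast between conditions.

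Su(H) is the DNA-binding protein of the Notch pathway. Without a signal it holds the corepressor Hairless at target genes, and when Notch is cleaved the receptor's intracellular part joins it and recruits the coactivator Mastermind. Fly promoters fall into broad classes: many housekeeping genes carry the DRE, bound by the factor DREF, or Motif 1, bound by M1BP, while many regulated genes carry GAGA repeats bound by GAGA factor. Ribosomal protein genes start transcription in a pyrimidine-rich TCT element. Whole embryos mix every tissue, so more cells with the factor at a site and more of it per cell cannot be told apart in any value given here.

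The 2 strongest peaks, at CG14100 and Ugalt, are shown as 201 bases around the summit (dm6 assembly, RefSeq sequence, read on the gene's strand 5′ to 3′), with capitals marking the word GGGCGTA on either strand. The peak at larp follows with capitals on the word CACAGTGG. Both words were picked after the strongest windows had been seen, and how often they occur is given with the motifs.
CG14100, chr3L:19590527-19590727, minus strand: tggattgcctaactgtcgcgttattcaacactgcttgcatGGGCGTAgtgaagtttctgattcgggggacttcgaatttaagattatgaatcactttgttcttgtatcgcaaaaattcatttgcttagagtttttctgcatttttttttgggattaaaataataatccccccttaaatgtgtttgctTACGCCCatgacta
Ugalt, chrX:2703781-2703981, minus strand: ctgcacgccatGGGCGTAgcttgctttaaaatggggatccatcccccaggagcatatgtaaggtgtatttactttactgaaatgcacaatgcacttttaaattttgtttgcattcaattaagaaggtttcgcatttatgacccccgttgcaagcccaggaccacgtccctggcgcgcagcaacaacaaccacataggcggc
larp, chr3R:28326505-28326705, minus strand: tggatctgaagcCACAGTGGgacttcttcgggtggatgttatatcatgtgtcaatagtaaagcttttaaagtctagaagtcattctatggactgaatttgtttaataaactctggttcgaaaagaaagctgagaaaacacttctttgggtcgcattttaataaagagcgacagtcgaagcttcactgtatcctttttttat

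Sequences on 1 chromosome arm are not printed. Among the rest, the next 4 windows hold the strongest peaks with a Su(H) consensus site, that is TGTGGGAA, CGTGGGAA, TGTGAGAA or CGTGAGAA on either strand, here in capitals. They show how the site lies relative to the summit at the middle base of each window, and Rgl has 2 sites.
CG3009, chrX:4666906-4667106, minus strand: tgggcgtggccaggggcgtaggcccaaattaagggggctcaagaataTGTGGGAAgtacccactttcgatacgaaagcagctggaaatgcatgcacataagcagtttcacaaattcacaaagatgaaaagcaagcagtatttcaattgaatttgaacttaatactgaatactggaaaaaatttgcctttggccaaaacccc
E(spl)mbeta-HLH, chr3R:26006217-26006417, minus strand: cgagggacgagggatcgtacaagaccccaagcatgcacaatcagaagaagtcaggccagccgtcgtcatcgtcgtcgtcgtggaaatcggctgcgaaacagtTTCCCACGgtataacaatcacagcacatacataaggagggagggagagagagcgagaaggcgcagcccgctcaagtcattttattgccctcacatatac
Rgl, chr3L:13920146-13920346, minus strand: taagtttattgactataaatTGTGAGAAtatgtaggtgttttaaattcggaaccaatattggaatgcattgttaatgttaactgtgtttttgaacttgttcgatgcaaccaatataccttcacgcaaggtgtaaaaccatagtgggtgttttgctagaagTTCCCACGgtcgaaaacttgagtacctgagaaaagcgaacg
Sqor, chr3L:4240095-4240295, plus strand: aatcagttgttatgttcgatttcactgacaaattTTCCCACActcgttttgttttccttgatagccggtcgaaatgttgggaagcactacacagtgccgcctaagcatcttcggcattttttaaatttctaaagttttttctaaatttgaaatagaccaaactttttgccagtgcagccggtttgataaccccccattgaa

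Housekeeping elements are shown in the same way and with the same arm left out. CG11151, eEF1gamma and RpS29 are the strongest peaks with the DRE, TATCGATA, in capitals. The strongest with Motif 1, in capitals, are deltaCOP and CG10068.
CG11151, chrX:13739456-13739656, plus strand: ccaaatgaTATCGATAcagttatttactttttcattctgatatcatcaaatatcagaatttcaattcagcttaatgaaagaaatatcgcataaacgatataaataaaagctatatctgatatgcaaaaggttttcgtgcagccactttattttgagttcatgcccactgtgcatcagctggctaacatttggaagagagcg
eEF1gamma, chr3R:29220061-29220261, plus strand: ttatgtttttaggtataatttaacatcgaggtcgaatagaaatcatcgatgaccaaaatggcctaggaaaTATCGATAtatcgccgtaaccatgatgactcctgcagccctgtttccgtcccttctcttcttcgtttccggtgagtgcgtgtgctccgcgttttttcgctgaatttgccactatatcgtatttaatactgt
RpS29, chr3R:9777936-9778136, plus strand: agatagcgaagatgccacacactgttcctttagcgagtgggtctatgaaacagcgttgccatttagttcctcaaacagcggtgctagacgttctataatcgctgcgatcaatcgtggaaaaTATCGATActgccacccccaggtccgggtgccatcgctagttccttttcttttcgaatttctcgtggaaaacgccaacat
deltaCOP, chrX:1861783-1861983, minus strand: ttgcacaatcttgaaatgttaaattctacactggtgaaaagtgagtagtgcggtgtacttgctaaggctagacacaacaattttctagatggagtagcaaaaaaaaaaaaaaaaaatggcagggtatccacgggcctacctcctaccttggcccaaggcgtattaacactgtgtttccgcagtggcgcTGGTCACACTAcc
CG10068, chr3R:7128062-7128262, minus strand: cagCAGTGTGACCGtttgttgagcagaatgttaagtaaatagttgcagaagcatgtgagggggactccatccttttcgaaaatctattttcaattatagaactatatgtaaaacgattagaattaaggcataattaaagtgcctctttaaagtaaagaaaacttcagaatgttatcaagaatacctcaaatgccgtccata

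The peaks marked 1241 genes, which is 8.9% of the 13945 annotated protein-coding genes. With shared promoter peaks added, 2703 genes had a peak, or 19.4%. A single peak lay at 1110 of the 1241 genes and more than 1 at 131. The gene with most was Rtnl1, a reticulon that shapes the endoplasmic reticulum, with 5 peaks at its alternative starts. Next came larp, an RNA-binding protein of the La-related family, the phosphatase gene Ptpmeg2 and dnc, a cyclic AMP phosphodiesterase, with 4 each. Member genes were long, with a median of 6132 bp against 2166 bp for all protein-coding genes, and 55.9% of them had more than 1 annotated start, against 26.5% of all. A gene with more starts has more windows in which a summit can fall, so the 2 values are not independent of the way the peaks were chosen. Genes known only by a CG number made up 26.6% of member genes and 43.7% of all. On the X chromosome lay 17.9% of the peaks and 15.7% of protein-coding genes, and on 3R 23.3% and 24.5%, with the other large arms closer still.

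Summits sat mainly just upstream of the start. Of the 1393 summits, 1008 (72.4%, 70.0 to 74.6%) were upstream of the nearest start, 384 (27.6%, 25.3 to 29.97%) downstream and 1 on it. The median position was 68 bp upstream, with quartiles at 189 bp upstream and 11 bp downstream. The median distance to either side was 106 bp. Within 50 bp of the start lay 393 summits (28.2%), within 100 bp 679 (48.7%) and within 200 bp 997 (71.6%). Among the downstream summits, 309 (80.5%) fell in the 5' untranslated region, 55 in an intron and 20 in a coding exon. Of the upstream summits, 352 (34.9%) were inside the body of their own gene, ahead of an internal start, and the nearest start was the most 5' one of its gene for 913 peaks (65.5%). A non-coding gene also started within 500 bp of 96 summits, and another protein-coding gene started 501 to 1000 bp from 217.

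The upstream side was less favoured by promoter peaks that missed the threshold. The list made from the pooled libraries held 30000 entries. The authors label it as peaks and background, so its weaker entries can include background. Of these entries 5549 lay at single-gene promoters and outside the thresholded list. In that remainder 56.4% of summits were downstream of the start, the median position was 31 bp downstream, and 35.1% were within 100 bp. The same comparison was made in each replicate list. Matched summits had to lie within 200 bp of thresholded ones, which came from the same replicates. Agreement between replicates was therefore largely built in. Matched summits of the thresholded peaks were downstream in 26.2, 28.0 and 28.7% of cases in replicates 1, 2 and 3, against 58.2, 55.0 and 57.0% of the other single-gene promoter peaks of the same lists. The difference was -29.1 ± 2.57 percentage points (SD, n = 3) and negative in 3 of 3 replicates. An exact two-sided sign-flip permutation test gave p = 0.25, the smallest p that 3 replicates allow. Median distances were 116, 113 and 109 bp for the thresholded peaks and 204, 174 and 170 bp for the others, without overlap (exact sign-flip permutation p = 0.25). The lowest pooled signal in the thresholded list was 105.653 and the highest outside it 105.647. The comparison is therefore between stronger and weaker entries at the same kind of promoter, and the weaker ones can include background.

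**Figure D1:**
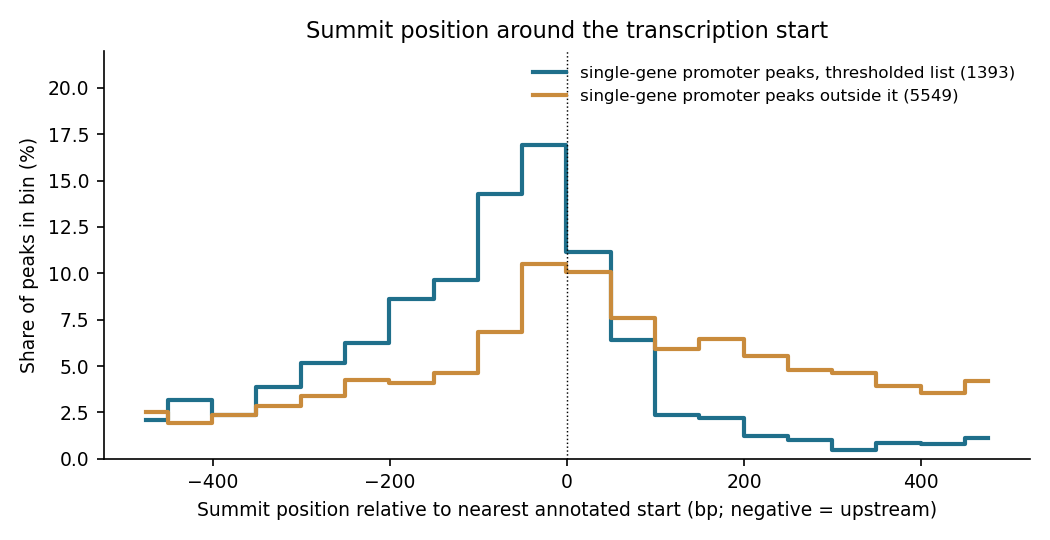
Share of peaks (vertical axis, %) by summit position relative to the nearest annotated start (horizontal axis, bp in 50-bp bins, upstream negative) for the 1393 thresholded single-gene promoter peaks and the 5549 outside the thresholded list. The thresholded peaks crowd within 200 bp upstream, and the others, which can include background, extend into the gene.

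Position and strength went together among the 1393 peaks as well. Signal here is the authors' value for each peak, as deposited. In replicates 1, 2 and 3 its median was 69.3, 64.5 and 66.4 for the 413 peaks with a summit 101 to 300 bp upstream. The 679 peaks within 100 bp of the start had 49.5, 50.001 and 53.4. The groups' replicate medians did not overlap, and the log2 ratio was 0.39 ± 0.09 (SD, n = 3), positive in 3 of 3 replicates (exact sign-flip permutation p = 0.25, the smallest possible). Upstream peaks as a whole had medians of 59.2, 57.0 and 60.0, against 46.3, 49.6 and 53.4 for downstream peaks, a log2 ratio of 0.24 ± 0.10 (n = 3, exact permutation p = 0.25). As the same peaks were re-measured in each replicate, these SDs do not give the spread among peaks. The few peaks far downstream were an exception. The 27 with summits 401 to 500 bp into the gene had medians of 70.7, 67.2 and 80.2, no lower than those upstream.

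**Figure D2:**
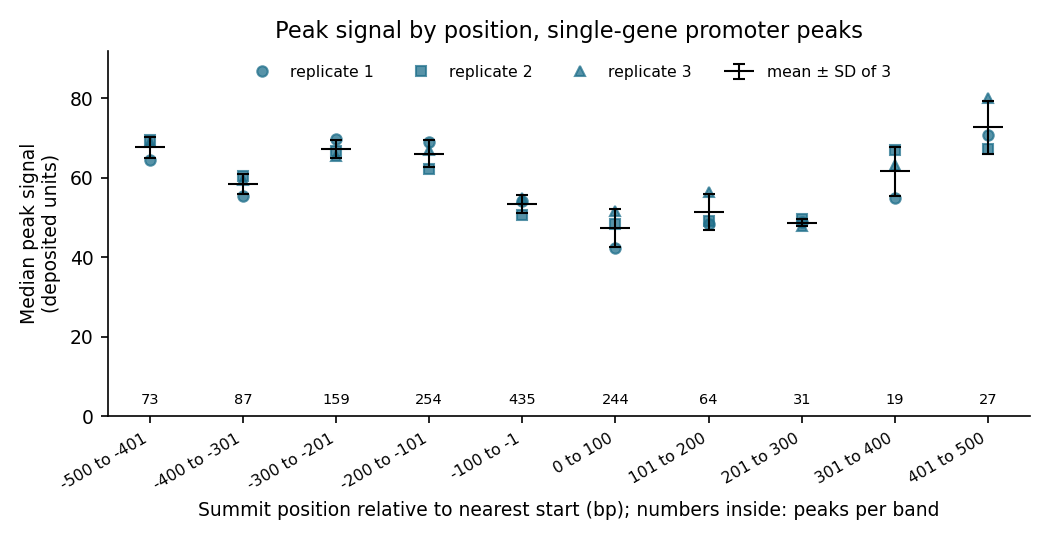
Median peak signal in each replicate (vertical axis, deposited units; points) by summit position (horizontal axis, bp in 100-bp bands, upstream negative), with the mean and SD of the 3 replicate medians in black and the number of peaks in each band at the foot. The lowest values lie between 0 and 300 bp downstream, and higher ones on both outer sides.

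Ranking by pooled signal showed the same shift. Among the 100 strongest of the 1393 peaks the median summit was 177.5 bp upstream, 65 lay 101 to 300 bp upstream and 9 were downstream. For ranks 101 to 500 the median was 102 bp upstream and 17.8% were downstream. For the remaining 893 it was 40 bp upstream and 34.0% were downstream. Peak width differs with strength too: the 100 strongest had a median width of 323.5 bp, while 1086 of the 1393 (78.0%) had a width of exactly 416 bp, the shortest being 104 bp and the longest 503 bp. What part width or peak calling plays in the position of the summit was not tested.

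The strongest peak stood at the promoter of CG14100 (chr3L:19590421-19590814, summit 103 bp upstream), with a signal of 847, 824 and 956 in replicates 1 to 3. Ugalt, which encodes a Golgi transporter of UDP-galactose, had 758, 823 and 932 at chrX:2703674-2704094, 29 bp upstream. These 2 peaks overlapped in their replicate values and stood above every other single-gene promoter peak in each replicate. The wing-vein gene px had 651, 744 and 783 with its summit 209 bp upstream. PNPase, a polynucleotide phosphorylase, had 567, 619 and 616 with a summit 83 bp downstream (chr3R:31404469-31404844). CG1888 followed with 584, 532 and 624, and larp with 492, 542 and 558 at a summit 341 bp upstream (chr3R:28326400-28326810). The Polycomb gene ph-p, whose product is part of the PRC1 complex, had 482, 494 and 508 at 482 bp upstream, near the edge of the window.

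Further down the 20 strongest were mRpL41, a mitochondrial ribosomal protein (455, 433 and 523), and Sox14, a transcription factor of the ecdysone response (354, 498 and 477). The casein kinase gene gish had 365, 423 and 441, and the bZIP factor gene Atf3 had 397, 368 and 432. eIF6, a factor that keeps ribosomal subunits apart, had 321, 313 and 396. The 20th was CG18549 with 257, 372 and 343. Of these 20 peaks 18 were upstream and 13 lay between 101 and 300 bp upstream. All 20 were found in the 3 replicates, and none fell below rank 70 in any replicate list of 30000 peaks. As strength set this ranking, the values are a description.

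**Figure D3:**
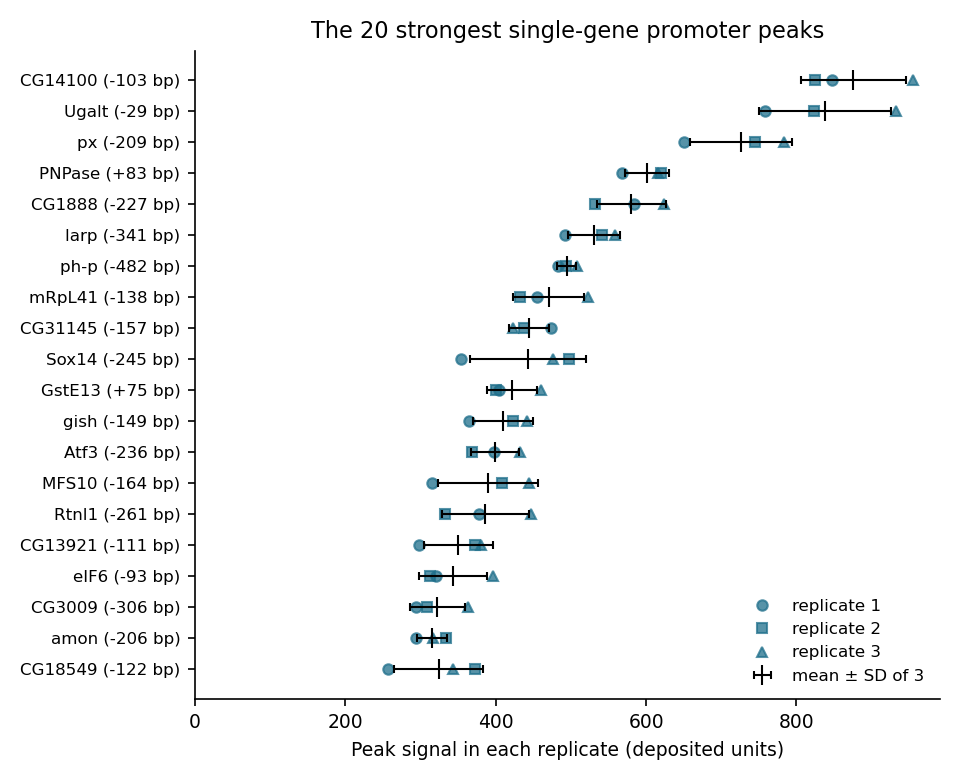
Signal in each replicate (horizontal axis, deposited units; points) of the 20 strongest single-gene promoter peaks, named by gene with the summit's distance from the start (negative upstream), with mean and SD of 3 replicates in black. CG14100 and Ugalt stand apart at the top of the list.

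Over all 1393 peaks the pooled signal ran between 105.7 and 2614, with a median of 159 and quartiles of 127 and 235. The medians elsewhere were close: 170 at shared promoters, 161 at non-coding starts and 155 away from promoters. Replicate medians were 55.0, 54.7 and 57.7 at single-gene promoters, against 63.5, 55.5 and 56.4 at shared ones. The log2 ratio was -0.06 ± 0.13 (SD, n = 3), smaller than the spread between replicates (exact sign-flip permutation p = 0.75). Without replicate 1 it was 0.0070. Of the 100 strongest thresholded peaks, 39 were at single-gene promoters.

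In all 3 replicate lists a summit lay within 200 bp of 1351 of the peaks (97.0%, 95.9 to 97.8%), where all thresholded peaks gave 97.9%. The other 42 were matched in 2 replicates. The thresholded list was made from these same replicates, so a high share was built in. A match also counted at any rank among the 30000 entries of a replicate list, weak ones included. Matched summits moved by a median of 16, 15 and 17 bp. Spearman's rho of the signal across the 1351 peaks was 0.59 between replicates 1 and 2, 0.62 between 1 and 3, and 0.68 between 2 and 3. Those are descriptions across peaks, some of which share a source: 58 neighbouring pairs of summits were within 500 bp, and 22, 34 and 28 peaks shared a replicate summit with a neighbour. The median coefficient of variation of a peak's signal was 21.6%, and it exceeded 50% at 103 peaks. Weak peaks could vary widely. Socs36E, an inhibitor of JAK-STAT signalling, had 59.2, 11.5 and 63.3, and emc, which sequesters proneural proteins, had 24.2, 83.1 and 60.1. The match of Socs36E in replicate 2 stood at rank 28080. The strongest peaks found in fewer than 3 replicates were at lola (109 and 122 in replicates 1 and 2), step (40.9 and 54.0 in 2 and 3), wdb (31.2 and 63.9 in 1 and 2), CG9795 (76.4 and 50.3 in 1 and 2) and Drat (65.2 and 76.7 in 2 and 3).

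At the edge of the window the summits just inside were those of CG5854 at 500 bp, rno at 497 bp and Fbl6 at 495 bp, all downstream, with pooled signals of 247, 117 and 575. Just outside were Sqor and CG9706 at 502 bp and lola at 503 bp, all upstream, with pooled signals of 264, 193 and 295.

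Cytoplasmic ribosomal protein genes were the list with the most peaks by count, and with the highest share once shared promoter peaks were added. By single-gene share the lists of Su(H) and its cofactors (40%) and of the Wnt pathway (38.5%) were higher. Of 86 cytoplasmic ribosomal protein genes 32 had a single-gene promoter peak (37.2%, against 8.9% of all protein-coding genes) and 28 more had only a shared promoter peak, 69.8% in all. RpL23A led with 220, 166 and 211 in replicates 1 to 3, followed by RpL30 with 114, 131 and 146 and RpL11 with 149, 125 and 111. RpS29 had 118, 115 and 152. Their summits hugged the start: 26 of 32 were within 50 bp (81.3%, 64.7 to 91.1%), against 367 of 1361 other peaks (27.0%). The median distance in replicates 1 to 3 was 27.5, 22 and 27 bp for ribosomal protein genes and 120, 116 and 113 bp for the others. That difference was -90.8 ± 4.25 bp (SD, n = 3) and negative in 3 of 3 (exact sign-flip permutation p = 0.25). Each replicate re-measured the same peaks, matched within 200 bp, so the SD gives the spread of summit calls and not that among genes. Signal medians of the ribosomal protein peaks, 64.8, 58.6 and 77.8, were above those of the other peaks, 54.9, 54.5 and 57.5, in 3 of 3 replicates (log2 ratio 0.26 ± 0.17, exact permutation p = 0.25). They also exceeded the medians of all peaks within 100 bp of a start, given above, in each replicate.

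Translation factors had 12 of 55 genes (21.8%) with a single-gene promoter peak and 9 with a shared one only. Examples are eIF6, eEF1gamma, an elongation factor subunit (158, 123 and 176), the poly(A)-binding protein gene pAbp (141, 125 and 150, summit 472 bp downstream) and eIF3c (129, 98.2 and 88.1). In the housekeeping lists given next the genes with only a shared promoter peak outnumbered those with a single-gene one. Over all protein-coding genes 8.9% had a single-gene peak and 19.4% had either. Among 75 mitochondrial ribosomal protein genes 3 had a single-gene and 19 only a shared promoter peak, among 32 proteasome genes 0 and 8, among 33 aminoacyl-tRNA synthetases 0 and 9, and among 84 genes of vesicle traffic 8 and 25. Respiratory chain and ATP synthase genes had 3 and 12 of 76, nuclear pore genes 0 and 4 of 25, and DNA replication genes 2 and 9 of 37. Splicing factors had 3 and 7 of 37 and the general transcription machinery 7 and 12 of 59. The pattern did not hold for cell cycle regulators, with 6 and 4 of 28. Nor did it hold for heat shock and chaperone genes, with 4 and 4 of 34. With both kinds added, the shares ran between 16% for nuclear pore genes, below that of all genes, and 39.3% for vesicle traffic, and that of the respiratory chain, 19.7%, was close to all genes. How many genes of each list have a neighbour starting within reach was not counted, so the part that gene layout plays in this split was not tested.

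Most signalling lists were above the 8.9% of all protein-coding genes with a single-gene promoter peak, and the Hedgehog list, with 1 of 15, was near it. The Wnt list had 10 of 26 genes with such a peak (38.5%) and 1 with a shared one only. Besides gish it held sgg, the GSK3 kinase of the pathway, with 217, 263 and 258, the kinase CkIalpha with 54.9, 54.0 and 66.4, and the antagonist nkd with 44.0, 70.8 and 96.3. JAK-STAT had 5 of 14 (35.7%) and 0 with a shared one only, among them the transcription factor Stat92E (53.3, 50.5 and 49.7). Hippo had 7 of 23 (30.4%) and 2 with a shared one only, with the upstream regulator Mer at 137, 119 and 126 and the kinase hpo itself at 52.3, 118 and 89.8. The insulin and TOR list had 7 of 28 (25%) and 3 with a shared one only, led by the PI3-kinase subunit Pi3K21B (141, 165 and 170) and the TOR-repressed transcription factor gene REPTOR (99.9, 175 and 137). The receptor InR had 31.9, 85.6 and 83.9. BMP had 5 of 21 (23.8%) and 2 with a shared one only. EGFR had 5 of 26 (19.2%) and 5 with a shared one only, with the ligand gene spi at 234, 158 and 181. Hedgehog had 1 of 15 (6.67%) and 2 with a shared one only. With both kinds added, the shares of these lists ran between 20% for Hedgehog and 42.3% for Wnt. All protein-coding genes had 19.4%, so Hedgehog was close to them. What part gene length and the number of starts play in these shares was not tested.

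Notch pathway components had 6 of 25 (24%, against 8.9% of all protein-coding genes), and 3 with a shared promoter only. The 6 were N, Nedd4, aph-1, kuz, mib1 and numb. numb, an inhibitor of Notch, had 123, 79.1 and 111, and the gamma-secretase subunit aph-1 had 34.1, 90.4 and 106. kuz, the protease that makes the extracellular cut in Notch, had 29.4, 67.1 and 64.8. Of Su(H) and its cofactors 4 of 10 had one (40%). The corepressor gro had 261, 189 and 222 at 129 bp upstream, the demethylase gene Kdm5 had 79.0, 61.2 and 59.8, and the acetyltransferase gene nej had 59.9, 55.7 and 49.5. Su(H) itself had 85.5, 77.2 and 53.3 with a summit 17 bp upstream. Whether the transgene also carries this promoter is not stated in the labels, and reads from such a copy and from the gene itself cannot be told apart. In the E(spl) and Bearded complexes, the classical Notch targets, 3 of 16 genes had a single-gene promoter peak (18.75%). E(spl)mbeta-HLH had 263, 225 and 270, all far above E(spl)m8-HLH with 30.5, 49.6 and 43.1 and E(spl)m7-HLH with 24.3, 77.0 and 27.2. Of 25 other Notch targets only 2 on the list did, Su(H) and the ETS factor gene pnt (22.1, 38.7 and 48.4). That is 8%, near the 8.9% of all genes.

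Polycomb group genes had 7 of 21 (33.3%, against 8.9% of all protein-coding genes), including ph-p, the demethylase Kdm2 (80.7, 63.9 and 125), RYBP (54.5, 67.4 and 49.5) and esc (85.1, 64.7 and 61.7). Insulator and promoter proteins had 7 of 21 (33.3%), including Trl, the GAGA factor gene itself, with 170, 125 and 174 at a summit 111 bp downstream. The trithorax and remodeller list had 6 of 32 (18.8%), and 11 with a shared promoter only. Heat shock and chaperone genes had 4 of 34 (11.8%), with Hsp83, the fly HSP90, at 103, 134 and 188, and the small heat shock genes Hsp27 (115, 169 and 106) and Hsp26 (120, 102 and 128). Lists of developmental regulators were near or below the 8.9% of all protein-coding genes. The list named for gap, pair-rule and segment polarity genes had 2 of 25 (8%). They were en (17.9, 31.5 and 49.3) and bcd, the maternal anterior determinant (67.3, 67.5 and 69.3), which is of none of these classes. Hox genes had 1 of 10 (10%), Dfd (36.4, 39.9 and 47.7). Proneural and neuroblast factors had 2 of 31 (6.45%), emc and pros (35.7, 39.1 and 33.5), and mesoderm and muscle factors 1 of 25 (4%), H15 (21.2, 38.1 and 36.5). Chemoreceptor genes had 0 of 179 and cuticle protein genes 0 of 121. Of the 1241 member genes, 1076 belonged to none of the lists.

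**Figure D4:**
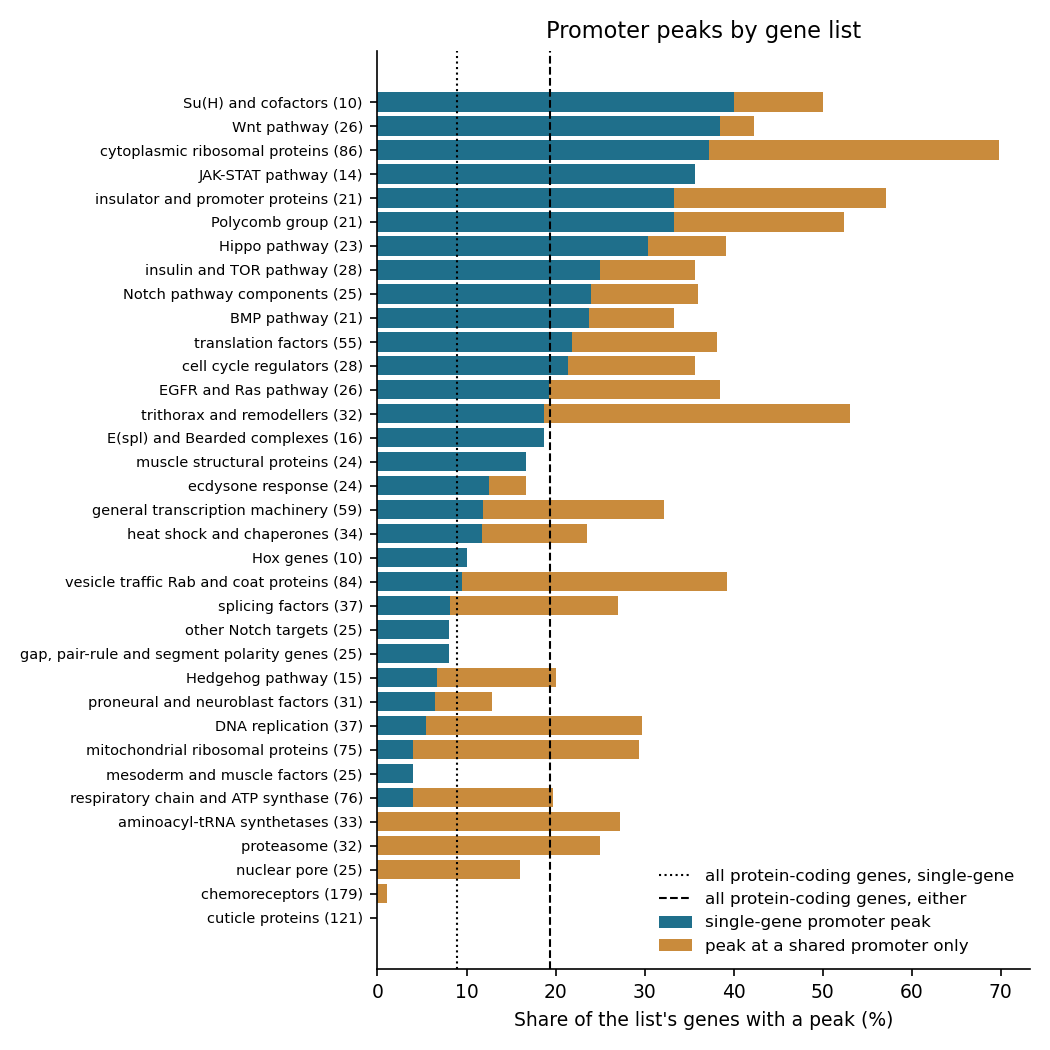
Share of each list's genes (horizontal axis, %) with a single-gene promoter peak (blue) or with a shared promoter peak only (brown), with list size in brackets, and the shares among all protein-coding genes of 8.9% (dotted, single-gene) and 19.4% (dashed, either). Cytoplasmic ribosomal protein genes reach 69.8%, while aminoacyl-tRNA synthetases, proteasome and nuclear pore genes have shared promoter peaks only.

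A Su(H) consensus site was uncommon. Within 100 bp of the summit it was present at 50 of 1393 peaks (3.59%, 2.73 to 4.70%), against 3.36% at shared promoters, 3.77% away from promoters and 2.05% (1.83 to 2.30%) of the same windows at the most 5' start of every protein-coding gene. Windows centred on the start nearest each single-gene summit had the site in 3.30% (2.48 to 4.38%). The same letters in reverse order stood at 1.72% (1.16 to 2.55%) of the summits and 1.37% of all starts. Peaks with a site had replicate medians of 54.7, 49.6 and 53.9 against 55.0, 54.8 and 57.8 for those without (log2 ratio -0.08 ± 0.07, n = 3, exact permutation p = 0.25). The sites lay a median of 44.5 bp from the summit, a value bounded by the 100 bp searched. The DRE, Motif 1 and GAGA repeats, searched in the same way, had medians of 42, 50 and 53 bp. Among the 100 strongest peaks 4 had a site, including CG3009, E(spl)mbeta-HLH and Rgl, shown above.

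The DRE was at 100 summits (7.18%, 5.94 to 8.66%), fewer than the 12.9% (10.7 to 15.5%) at shared promoters and many more than the 0.384% away from promoters. All gene starts gave 7.84%. Relative to the start, 87 of the 100 were upstream, and the median over all 100 was 40 bp upstream. Among ribosomal protein peaks 8 of 32 had it. Motif 1 was at 45 summits (3.23%), against 4.01% at shared promoters, 0.128% away from promoters and 3.94% of all starts. GAGA repeats, GAGAGA, were at 187 single-gene summits (13.4%, 11.7 to 15.3%), 4.01% (2.84 to 5.63%) of shared ones, 14.1% (12.5 to 15.9%) of summits away from promoters and 8.37% of all starts. At single-gene promoters they lay a median of 88 bp upstream of the start. In the band 401 to 500 bp upstream 19 of 73 summits (26.0%) had them. The E-box CAGCTG was at 11.8% of single-gene and 19.1% of shared promoter summits, and TATAAA at 20.9% and 28.8%. Windows at summits and at all starts are centred differently. Centred on the start nearest each single-gene summit, windows had the DRE at 8.40%, Motif 1 at 4.59% and GAGA repeats at 18.7%. The E-box was at 16.8% of those windows and 13.8% of all starts, and TATAAA at 15.6% and 29.2%. The Zelda site CAGGTAG was at 0.718% of single-gene summits and 1.03% of all starts. Of the 1393 peaks 1044 had no Su(H) site, DRE, Motif 1 or GAGA repeat. The median GC content of the windows was 41.3% at single-gene promoter summits and 41.3% at all starts, but 37.8% at shared promoters and 37.3% away from promoters, and the part of base composition in these shares was not tested.

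**Figure D5:**
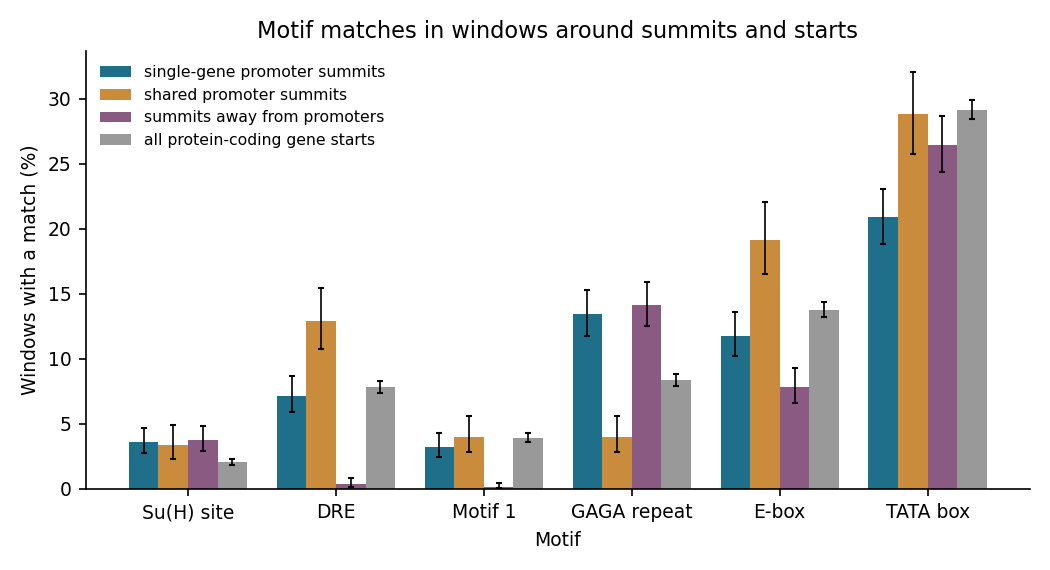
Share of 201-bp windows with a match on either strand (vertical axis, %) for 6 motifs, around single-gene promoter summits, shared promoter summits, summits away from promoters and the most 5' start of every protein-coding gene, with 95% Wilson intervals. GAGA repeats are more frequent at single-gene than at shared promoter summits and about as frequent as away from promoters. The DRE and E-box are less frequent at single-gene than at shared promoter summits and more frequent than away from promoters.

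The 2 words in capitals in the strongest windows followed peak strength. GGGCGTA was in 7 of the 20 strongest peaks, CG14100, Ugalt, px, CG1888, CG31145, CG3009 and amon, and in 10 of the 100 strongest. It was in 1.75% of ranks 101 to 500 and in 3 of the 893 weakest (0.336%), and in 0.774% of all starts. CACAGTGG was in 15 of the 100 strongest, among them larp, Rtnl1, Ptpmeg2, spi and CG11151, in 6% of ranks 101 to 500 and in 2.80% of the rest. All starts had it at 0.717% (0.590 to 0.871%). Among the 100 strongest of the other thresholded peaks GGGCGTA was in 5 and CACAGTGG in 8, so neither was limited to single-gene promoters. The words were chosen on these windows, and no test is given. Repeat annotation was not used here.

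Around the start itself, within 10 bp, an initiator word (TCAGT or TCATT) was found at 22.7% (20.5 to 25.04%) of the 1334 different starts nearest these peaks, against 16.3% (15.7 to 16.9%) of all gene starts. A TATAAA 16 to 45 bp upstream was rarer, at 3.30% (2.47 to 4.40%) against 8.81% (8.35 to 9.30%). The TCT element (TCTTTT or TCTTTC, also with C as the leading letter) was at 17 of the 32 ribosomal protein starts with a peak, 53.1% (36.4 to 69.1%), and at 36 of all 86 ribosomal protein starts, which include them (41.9%, 32.0 to 52.4%). These shares describe the letters at annotated starts. All gene starts are the most 5' one of each gene, whereas the starts nearest peaks include internal ones. What part this plays in the differences was not tested.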

How the data were processed

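Deposited peak lists on dm6 were used: 1 for each of 3 replicates, 1 of the pooled libraries and the thresholded list that the authors made from them by irreproducible discovery rate (IDR). A control file entered each, per the file lists deposited with the series. The authors label the pooled list as peaks and background. The aligner, the caller and the cutoff of IDR were not given in the sources used here. Peak signal is used as deposited by the authors, and neither its scaling nor the read depth is stated. The summit is the start plus the deposited offset. Fragments were 200 to 800 bp per the labels. Genes came from Ensembl release 115 (BDGP 6.54) and sequence from the RefSeq copy of the same assembly. Replicate peaks were matched by nearest summit within 200 bp, so neighbouring peaks can share a match. Shares carry 95% Wilson intervals, which cover counting error only. Replicate values were compared by exact two-sided sign-flip permutation. Python 3.11.15, pandas 2.3.3 and SciPy 1.17.1 were used, and the code was tested on simulated data. The members, motifs and 35 gene lists were chosen with earlier results of these data known, and 25 listed symbols were not found in the annotation. Comparisons by position, by motif and at the start were chosen after seeing the data. Named genes are the 20 strongest, up to 4 per list, those strongest with a motif or far from the start, those with most peaks, and those at the limit of 500 bp or missing from a replicate. Replicates are biological per the labels.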

Additional observations from a re-analysis of the deposited data

How the results depend on the processing

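Promoter distances of 200 and 1000 bp, the most 5' start alone, dropping peaks near non-coding starts and joining summits within 200 bp left 1065 to 1474 peaks. The 2000 strongest thresholded peaks left 722. The share of summits downstream was 30.6% at 1000 bp, 33.6% with the most 5' start and 20.9% among the 2000 strongest. From replicate summits, without 1 replicate, it was 27.1 to 28.3%. The median distance was 66 bp at 200 bp, 172 bp at 1000 bp, 99 bp with the most 5' start, 133.5 bp among the 2000 strongest and 113 bp from replicate summits (111 to 114.5 bp without 1 replicate), so it follows the window set. Matching in all 3 replicates was 85.6% within 100 bp and 98.9% within 500 bp, and 97.6 to 98.4% without 1 replicate. The log2 ratio of single-gene over shared promoters turned to 0.0072 among the 2000 strongest and ranged between -0.11 and 0.0070 without 1 replicate; it was -0.19 with promoters of 200 bp. A Su(H) site was at 1.87% and 6.25%, and the DRE at 3.88% and 9.62%, with windows of 50 and 200 bp to each side. No paired analysis between groups was possible because there was 1 group; the sign-flip tests pair sets of peaks within a replicate. Depth is unknown, groups of 3 were not tested for outlying samples, and 3 replicates cannot give a p under 0.25.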
